A study of Mus musculus with 24 samples.

Results

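The comparison described here is the genotype difference in the 6 h response of mouse splenic CD4+ T cells. It is the change from 0 h to 6 h of stimulation in Aim2-/- cells minus the same change in wild type (WT) cells. It was computed from 12 of the 24 libraries of the series, the 0 h and 6 h libraries of the mice labelled WT 1, WT 3 and WT 4 and of the mice labelled Aim2-/- 1, 2 and 4. Each mouse gave a library at both times, so each mouse was its own control. All mice had the C57BL6 strain background, and Aim2 deficiency was constitutive, in every cell of the animal. The 0 h libraries were unstimulated, and the 6 h libraries came from cells stimulated with anti-CD3/CD28 antibodies. The age of the mice is not given in the sources used here. The labels give the cells as CD4+ T cells with no further sorting. The general methods of the study describe enrichment by immunomagnetic negative selection, although their account of RNA sequencing is of another experiment. Poly(A) RNA was sequenced with a stranded kit, and reads were counted per gene.

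Engagement of the T cell receptor (TCR) with CD28 moves a resting CD4+ T cell into growth. Calcium and NFAT, MAP kinase and NF-kB signalling switch on immediate early transcription factors, then cytokines and surface receptors. MYC and mTOR then raise ribosome production, amino acid uptake and nucleotide synthesis, while genes of the quiescent state are shut off. AIM2 is a cytosolic sensor of double-stranded DNA, studied mostly for its part in inflammasomes and innate immunity, and is also present in T cells.

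Of 14431 genes tested, 1093 (7.57%) had a different 6 h response in the genotypes at an adjusted p under 0.05. The response was lower in Aim2-/- cells for 887 genes (6.15%) and higher for 206 (1.43%). Among the genes with a lower response were 15 of 25 immediate early factors, 44 of 94 ribosome biogenesis genes, 14 of 33 serine, one-carbon and nucleotide synthesis genes, and genes for Tnf, Il2, Il4, Ccl3, Cd40lg and Cd274. The 6 h levels of Il2, Il4 and Ccl3 overlapped between the genotypes. Among those with a higher response were 5 of the 7 mitochondrially encoded subunits tested, and Klf2, Il7r and Tcf7, from a list of 33 quiescence and naive state genes in which 4 others were lower. The adjusted p is that of edgeR's quasi-likelihood test with each mouse as a block and Benjamini-Hochberg adjustment over all genes tested. Differences of responses are given throughout as log2 values with Aim2-/- minus WT as the direction.

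These calls depended on the pairing of libraries by mouse and on single mice. In the edgeR fit with no mouse block 0 genes passed, although 2025 were under 0.05 before adjustment. When mouse WT 3 was left out 0 genes passed as well, with 2237 under 0.05 before adjustment. Leaving out WT 4, Aim2-/- 1, Aim2-/- 4 or WT 1 gave 278, 372, 523 and 633 genes, and leaving out Aim2-/- 2 gave 1168. All 1093 genes kept their direction in each of these fits, which share most of their libraries. With library totals in place of TMM size factors, 714 genes passed and 52.0% of them were higher in Aim2-/- cells, against 18.8% as reported here. TMM factors were 1.06 to 1.15 in the Aim2-/- 6 h libraries and 0.937 to 1.03 in the other 9. The median difference over all genes was -0.064 with TMM and 0.061 with library totals. Gene lists are therefore described by their median minus the median of all genes.

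**Figure D1:**
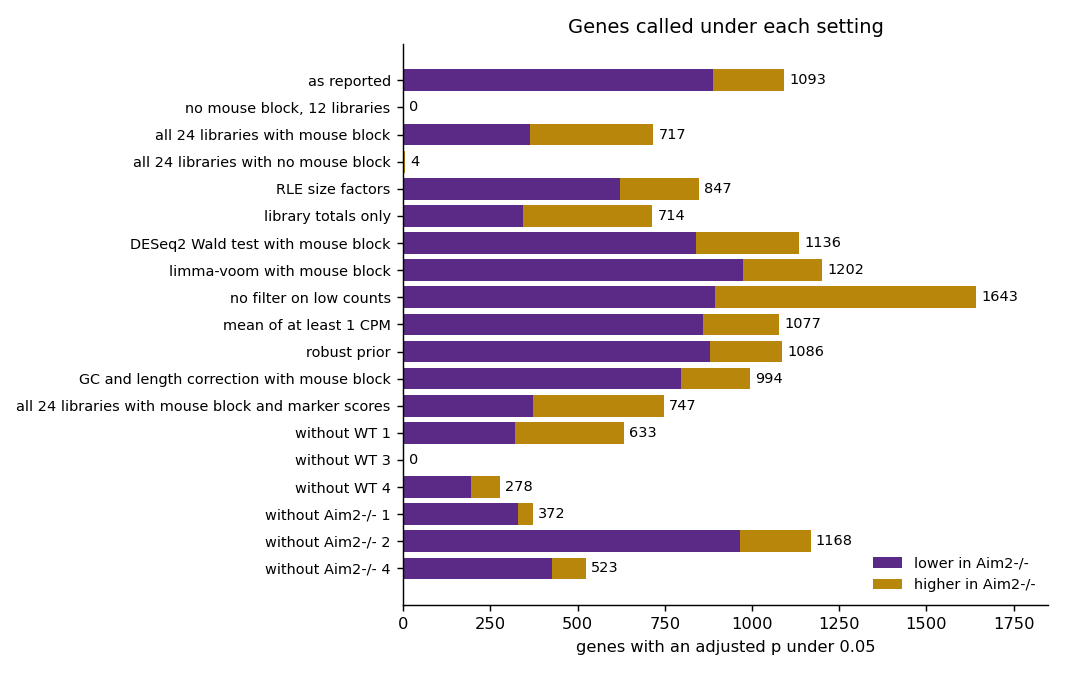
Number of genes with an adjusted p under 0.05 in the genotype difference at 6 h, under the setting reported (1093) and each alternative. Bars are split into genes lower and higher in Aim2-/- cells. The fits with no mouse block and without mouse WT 3 each gave 0 genes.

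The knockout was checked first in the Aim2 counts. At 0 h the counts of Aim2 (ENSMUSG00000037860, GRCm38 chromosome 1, 173350879 to 173466040) were 430, 1451 and 1331 in WT 1, 3 and 4, and 324, 408 and 386 in Aim2-/- 1, 2 and 4. At 6 h they were 259, 678 and 668 in the WT mice and 259, 232 and 170 in the Aim2-/- mice. The mouse labelled WT 1 thus lay beside the Aim2-/- mice at both times and not with WT 3 and WT 4. Reads remained on the gene in the knockout. Aim2 itself fell in both genotypes, with WT and Aim2-/- responses of -1.02 and -0.92, and the difference did not pass (0.11, SE 0.17, adjusted p = 0.746).

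Ifi213, another interferon-inducible gene of the same chromosome 1 cluster (173566283 to 173599274), separated the mice in the same way. It measured 1.01, 51.2 and 57.5 CPM (counts scaled by TMM-adjusted library size) in WT 1, 3 and 4 at 0 h and 0.244, 0.745 and 0.925 CPM in the Aim2-/- mice. The 6 h values were 1.48, 25.6 and 31.7 CPM in the WT mice and 0.703, 1.36 and 1.11 CPM in the Aim2-/- mice. The mouse labelled WT 1 was again with the Aim2-/- mice, and it was the only labelled WT mouse in which Ifi213 did not fall. Without WT 1, 7 type I interferon-stimulated genes were lower and 1 higher of 49 tested. With all mice, Ifi213 was the sole member called among 48 (difference 1.51, SE 0.42, adjusted p = 0.0450), and it was called in 8 of 18 alternative fits. Because the label of WT 1 goes against these genes, group counts below are also given without that mouse. Of 14824 genes tested without it, 633 were called (319 lower, 314 higher), and list counts without WT 1 are to be read against these. Of the 633, 439 were among the 1093, all in the same direction.

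**Figure D2:**
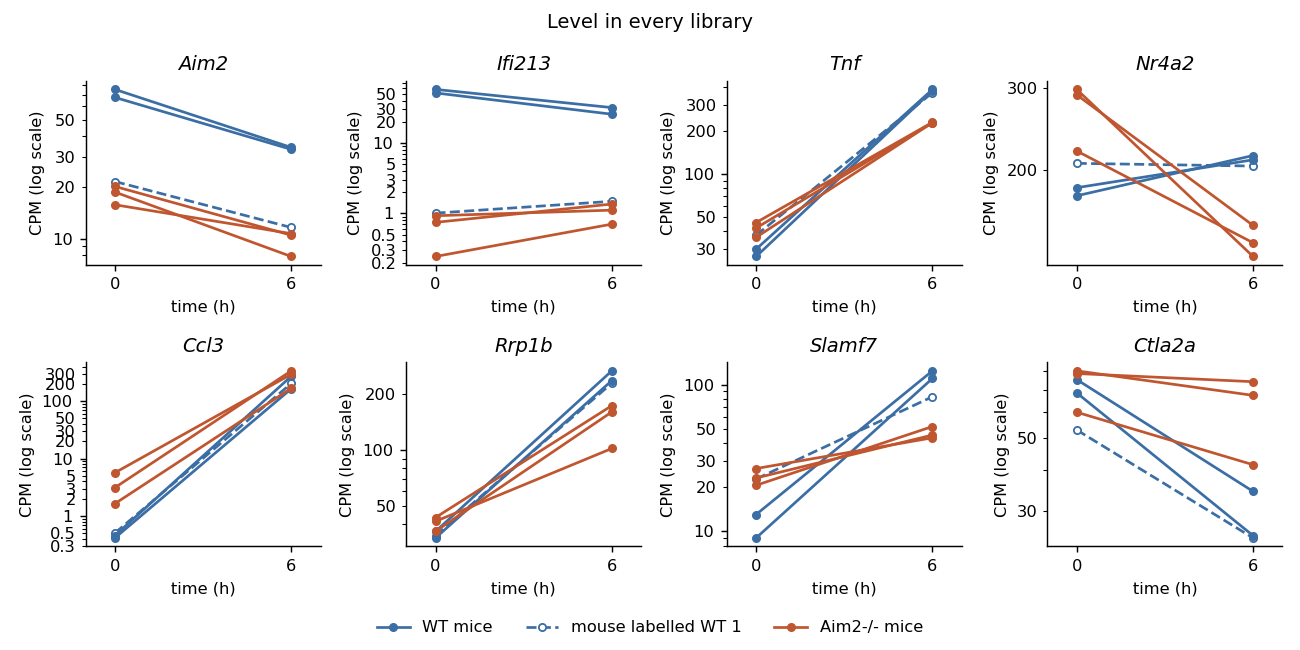
Level of 8 genes in every library, in CPM on log axes, at 0 h and 6 h, with a line for each mouse. Solid blue lines are WT 3 and WT 4, the dashed line with open circles is the mouse labelled WT 1, and orange lines are the Aim2-/- mice. Aim2 and Ifi213 place WT 1 with the Aim2-/- mice, while Tnf and Rrp1b at 6 h place it with the other WT mice. Tnf and Rrp1b were named among genes called with WT 1 counted as WT, so their placing follows in part from that choice.

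Library size did not differ between groups, with totals of 19993612 to 21627018 counts. CD4 T cell markers summed to between 4670 and 5296 CPM in every library, and CD8 markers to at most 12.6 CPM. Markers of other cells were higher in the Aim2-/- mice. At 0 h, myeloid markers summed to 73.2 to 97.3 CPM in WT and 155 to 422 CPM in Aim2-/- mice, plasma cell markers to 41.3 to 169 CPM and 390 to 769 CPM, basophil and mast cell markers to 7.20 to 9.999 CPM and 53.8 to 103 CPM, and neutrophil markers to 25.7 to 27.1 CPM and 105 to 292 CPM. At 6 h the ranges were 64.0 to 94.4 and 116 to 267 CPM for myeloid, 31.6 to 149 and 339 to 721 CPM for plasma cell, 9.46 to 16.7 and 69.1 to 136 CPM for basophil and mast cell, and 8.65 to 17.9 and 46.2 to 174 CPM for neutrophil markers. The 4 NK cell markers, which include Eomes, summed to 32.0 to 53.3 CPM in WT and 92.3 to 111 CPM in Aim2-/- mice at 0 h, and to 41.0 to 55.0 and 63.3 to 84.0 CPM at 6 h. No marker was at 0 counts in all libraries. Of the marker genes, only Eomes, in the NK cell list, was called in the genotype difference. In bulk libraries, fewer cells of a type and less RNA per cell cannot be told apart.

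The responses themselves were broad. By the same test, 8947 genes (62%) changed in WT and 9180 (63.6%) in Aim2-/- cells. Of the 887 genes with a lower response, 420 rose in both genotypes and rose less in Aim2-/- cells, 239 fell in both and fell further, and 228 rose in WT and fell in Aim2-/- cells by the fitted values. Of the 206 genes with a higher response, 127 fell in both genotypes and fell less in Aim2-/- cells, 61 fell in WT and rose in Aim2-/- cells, and 18 rose in both, again by the fitted values. The sizes were moderate. The difference exceeded 1 on the log2 scale for 97 of the lower and 22 of the higher genes, and the medians were -0.58 and 0.61. The 3 WT and 3 Aim2-/- responses did not overlap for 879 of the 887 and 203 of the 206 genes, against 29.6% of all genes tested. The calls were made from these same responses, so the separation follows in large part from the calling.

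**Figure D3:**
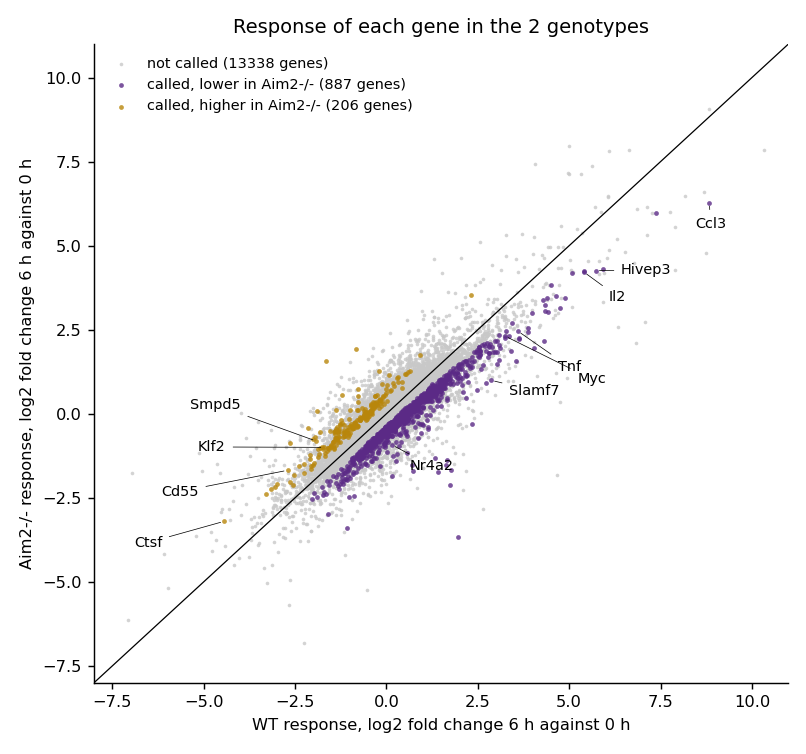
Fitted response of each gene to 6 h of stimulation in WT (x axis) and Aim2-/- cells (y axis), both as log2 fold change against 0 h, with the line of equal response. Purple points are the 887 genes called lower and gold points the 206 genes called higher in Aim2-/- cells. Most purple points lie right of 0, where genes rose in WT cells, and most gold points lie left of 0.

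The genotype gap behind a lower response lay mostly at 6 h. At 6 h, 811 of the 887 genes (91.4%) were below WT in Aim2-/- cells, with a median difference of -0.48, while at 0 h 564 (63.6%) were above WT, with a median of 0.07. Over all genes, 54.9% were below WT at 6 h and 48.4% above at 0 h. For the 206 genes with a higher response, 173 (84.0%) were below WT at 0 h, median -0.30, and 190 (92.2%) were above WT at 6 h, median 0.36. These counts describe the calls and follow in part from how they were made.

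Immediate early transcription factors had the largest share of lower responses of the 65 lists examined. These are the EGR, NR4A and AP-1 genes that TCR signals induce without new protein synthesis. Of 25 tested, 15 were lower and 0 higher, and the list median lay 0.56 below that of all genes (-0.56). Without WT 1 the count was 11. The list median in a mouse, relative to all genes, was 0.35 to 0.66 in WT and -0.14 to 0.15 in Aim2-/- mice, so the genotypes did not overlap. Such separation was common and also held for lists with few calls. TCA cycle enzymes (2 of 25 called) had 0.21 to 0.23 in WT and -0.06 to 0.05 in Aim2-/- mice. Proteasome subunits (2 of 42) had 0.77 to 0.86 and 0.38 to 0.70.

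Nr4a2, an orphan nuclear receptor read as a marker of TCR signal strength, stood at 207, 183 and 176 CPM at 0 h and 204, 210 and 215 CPM at 6 h in WT 1, 3 and 4. In Aim2-/- 1, 2 and 4 it went from 298, 220 and 290 CPM to 131, 140 and 152 CPM. Levels were thus flat in WT and fell in every Aim2-/- mouse, from a higher start to a lower end (difference -1.08, SE 0.14, adjusted p = 0.00936). Its relative Nr4a3 went from 1278, 1071 and 1298 to 927, 999 and 1053 CPM in WT mice, and from 1626, 1383 and 1497 to 499, 651 and 683 CPM in Aim2-/- mice, a difference of -1.02. Egr1, a zinc finger factor induced through MAP kinase, began level in all 6 mice, at 63.1 to 70.8 CPM. It reached 501, 630 and 577 CPM in WT and 300, 334 and 361 CPM in Aim2-/- mice (-0.73, SE 0.11, adjusted p = 0.0107). Nr4a1, Fos, Egr2, Egr3, Atf3 and Junb were lower as well, with differences of -0.48 for Junb to -1.07 for Atf3. Jun had -0.12 (adjusted p = 0.713), and Fosl1, with -1.76, did not pass either (adjusted p = 0.0797).

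Among 39 genes of the TCR complex and proximal signalling 9 were lower and 1 higher (5 and 1 without WT 1), and the list median differed from that of all genes by -0.10. Cd5, an inhibitory coreceptor, rose in WT 1, 3 and 4 from 507, 416 and 463 to 690, 631 and 555 CPM, and fell in the Aim2-/- mice from 619, 593 and 538 to 467, 524 and 437 CPM (-0.73, adjusted p = 0.0107). Ubash3b, a phosphatase that restrains ZAP70, had -1.22, the adaptor Lcp2 -0.65 and the kinase Zap70 -0.53. Sh2d1a, the adaptor SAP of SLAM receptors, was the gene with a higher response (0.62). Among 20 calcium and NFAT genes 5 were lower and 1 higher (2 and 1 without WT 1). Orai1, the pore of the store-operated calcium channel, had -0.82 and its paralog Orai2 had 0.77. Nfatc1 had -0.93. Of 31 MAP kinase genes 6 were lower (3 without WT 1), led by the feedback inhibitors Dusp6 (-1.13), Spry1 (-1.18) and Spred1 (-0.96). Of 23 NF-kB genes 3 were lower (1 lower and 1 higher without WT 1), the subunits Rel (-0.63) and Nfkb1 (-0.59) and the inhibitor Nfkbid (-0.46).

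Of 26 cytokine genes tested, 4 had a lower response and 0 a higher one, and without WT 1 the counts were 4 and 1. Tnf (ENSMUSG00000024401) rose from 37.6, 26.8 and 30.1 CPM to 368, 380 and 388 CPM in WT 1, 3 and 4. In the Aim2-/- mice it rose from 46.1, 36.4 and 42.2 to 229, 228 and 228 CPM. The 6 h levels of the genotypes did not overlap, and the increase was 12.1-fold in WT and 5.51-fold in Aim2-/- cells (-1.14, SE 0.14, adjusted p = 0.00936). Il2, the T cell growth factor, rose from 1.86, 1.35 and 1.57 to 81.6, 55.3 and 66.0 CPM in WT mice, and from 3.12, 1.84 and 2.68 to 45.8, 40.5 and 56.1 CPM in Aim2-/- mice (-1.18, SE 0.20, adjusted p = 0.0129). At 6 h Aim2-/- 4 reached the level of WT 3, whereas the responses of the mice did not overlap.

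Il4, the T helper 2 cytokine, spread widely among WT mice at 6 h, with 58.8, 86.1 and 198 CPM against 105, 57.9 and 74.1 CPM in Aim2-/- mice, and levels overlapped. Its difference was -1.14 (SE 0.26, adjusted p = 0.0247), with 0 h values of 3.73 to 5.02 CPM in WT and 4.87 to 10.6 CPM in Aim2-/- mice. Il4 was called in 9 of 18 alternative fits. Tgfb1 had -0.58. Tbx21, which encodes the T helper 1 regulator T-bet, had a lower response (-1.24, SE 0.27, adjusted p = 0.0227), from a higher start in Aim2-/- mice (32.3 to 55.9 against 17.5 to 26.4 CPM). The differences of Ifng (-0.24, adjusted p = 0.505), Il10 (-0.19, 0.620), Il17a (-1.40, 0.212), Foxp3 (-0.18, 0.265) and Gata3 (-0.23, 0.222) did not pass. The standard error of Il17a (0.66) was several times that of Foxp3 (0.10), so sizes that could be called differed between these genes.

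Chemokines and surface receptors of activated cells also took part. Ccl3, an inflammatory chemokine, began at 0.504, 0.414 and 0.456 CPM in WT 1, 3 and 4 and at 5.66, 1.64 and 3.11 CPM in Aim2-/- mice. At 6 h it stood at 203, 164 and 271 CPM and at 293, 168 and 337 CPM, so the end levels overlapped and the difference of -2.55 (SE 0.36, adjusted p = 0.00936) lay in the starting level. Ccl4 gave the same picture, with -1.41 and 0 h levels of 0.755, 2.38 and 1.67 CPM in WT and 5.61, 3.13 and 8.37 CPM in Aim2-/- mice. Myeloid, basophil, mast cell and NK cell markers were also higher at 0 h in the Aim2-/- mice, as given above, and their part in the values of Ccl3 and Ccl4, and of Tbx21, Eomes and Fasl, was not tested. Among 31 chemokine and receptor genes 5 were lower (4 lower and 1 higher without WT 1), Ccr8 (-1.23), Ccr4 (-1.19) and Gpr183 (-0.73) being the others.

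Of 24 genes of the TNF superfamily 8 were lower and 1 higher (3 and 1 without WT 1), with a median of -0.29 relative to all genes. Cd40lg, the help signal of T cells to B cells, went from 138, 88.7 and 99.7 to 260, 252 and 262 CPM in WT mice, and from 114, 106 and 111 to 93.1, 155 and 118 CPM in Aim2-/- mice (-1.15, SE 0.19, adjusted p = 0.0120). All WT levels at 6 h lay above all Aim2-/- levels, and the 0 h levels overlapped. Tnfsf8 had -1.27, Tnfrsf9 -0.88, Fasl -0.73 and Tnfrsf1b -0.67. Among 15 inhibitory receptors and ligands 5 were lower (4 without WT 1), and the list median was -0.35. Cd274, which encodes PD-L1, rose from 101 to 133 CPM in WT mice to 505, 515 and 592 CPM, and from 137 to 169 CPM in Aim2-/- mice to 286, 368 and 324 CPM (-1.05, SE 0.16, adjusted p = 0.0107). Pdcd1, which encodes its receptor PD-1, differed mainly at the start. It rose in WT from 270, 141 and 180 to 422, 278 and 280 CPM and stood at 494, 385 and 336 CPM and then 445, 416 and 305 CPM in Aim2-/- mice (-0.81). Lag3 (-1.13), Pdcd1lg2 (-0.84) and Vsir (-0.58) were the others, while Ctla4 had 0.20 (adjusted p = 0.268). Slamf7, a SLAM family receptor, rose from 22.8, 9.01 and 13.0 to 82.8, 110 and 124 CPM in WT mice, and from 26.8, 20.6 and 23.1 to 43.5, 51.9 and 45.4 CPM in Aim2-/- mice (-1.87, SE 0.33, adjusted p = 0.0129). At 0 h the mouse labelled WT 1 was within the Aim2-/- range for Slamf7, and at 6 h it was above it.

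Cytokine receptors and their kinases were lower in 9 and higher in 1 of 42 genes (6 and 1 without WT 1). Jak2 (-0.92), Il21r (-0.82) and Il4ra (-0.77) had the smallest p values. Stat3, a transducer of several of these receptors, had -0.55. The gene with a higher response was Il7r. Among 22 T helper lineage factors, Eomes (-0.92), Ikzf3 (-0.57) and Bcl6 (-0.43) were lower along with Tbx21, 4 in all and also 4 without WT 1.

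**Figure D4:**
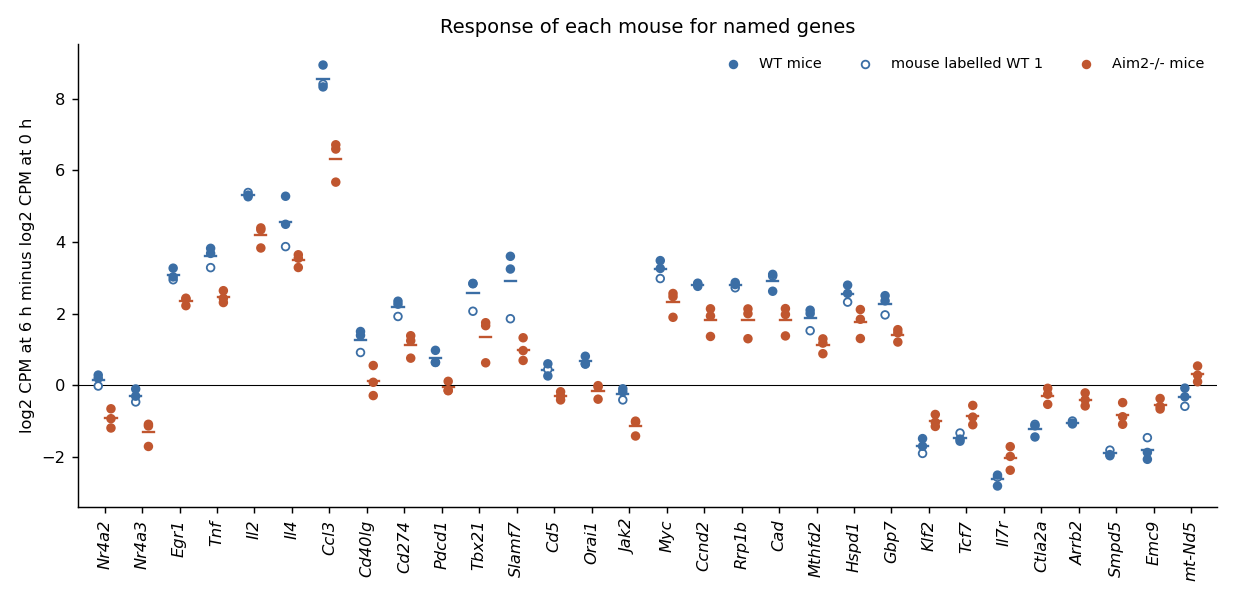
Response of each mouse (log2 CPM at 6 h minus log2 CPM at 0 h) for genes named in the text, with a bar at the mean of the 3 mice of a genotype. Open circles are the mouse labelled WT 1. For every gene plotted the WT and Aim2-/- values do not overlap, with WT above for genes from Nr4a2 to Gbp7 and below for genes from Klf2 to mt-Nd5. The genes were chosen among those called, so this separation follows in large part from the choice.

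Growth genes formed the largest group by number. Myc, whose product drives ribosome and nucleotide synthesis, rose from 80.5, 76.6 and 77.0 to 636, 857 and 739 CPM in WT 1, 3 and 4. In Aim2-/- mice it rose from 89.8, 88.8 and 94.2 to 335, 526 and 524 CPM. Every Aim2-/- level at 6 h was below every WT level, and at 0 h the order was the reverse (-0.93, SE 0.17, adjusted p = 0.0139). Ccnd2, the G1 cyclin D2, began at 224 to 275 CPM in all mice and reached 1616, 1722 and 1836 CPM in WT and 663, 1210 and 994 CPM in Aim2-/- mice (SE of the difference 0.16, adjusted p = 0.0114). Hivep3, a large zinc finger protein, was among the genes with the smallest p, reaching 771, 707 and 583 CPM in WT against 222, 329 and 279 CPM in Aim2-/- mice from 11.03 to 15.9 CPM at 0 h (-1.47, SE 0.19, adjusted p = 0.00936). Aim2-/- 1 had the lowest 6 h level of Myc, Ccnd2 and Hivep3, and also the largest TMM factor. Its part in these levels was not tested, and the differences of Myc, Ccnd2 and Hivep3 kept their direction in all 18 alternative fits, with adjusted p values up to 0.192, 0.182 and 0.0891.

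Ribosome biogenesis and RNA polymerase I genes were lower in 44 and higher in 0 of 94, with a list median of -0.42 relative to all genes. Without WT 1 the count was 9, and without each mouse in turn the list median was between -0.50 and -0.27. Of the 94 genes, 88 lay below the median of all genes. In single mice the list rose by 1.23 to 1.40 above all genes in WT and by 0.58 to 1.05 in Aim2-/- mice. Rrp1b, a nucleolar protein, went from 34.7, 36.5 and 33.7 to 230, 268 and 237 CPM in WT mice, and from 41.4, 43.4 and 36.6 to 102, 174 and 161 CPM in Aim2-/- mice (-0.99, SE 0.17, adjusted p = 0.0129). The rRNA processing factors Pdcd11 (-0.79), Nol9 (-0.70) and Ddx21 (-0.82) and nucleolin (Ncl, -0.73) were called. Fibrillarin (Fbl, -0.71, adjusted p = 0.0507) was just outside the threshold. Cytosolic ribosomal proteins, in contrast, had 1 lower gene of 78 (Rpl3, -0.39) and mitochondrial ribosomal proteins 1 of 77 (Mrps18b, -0.51), with list medians of 0.07 and 0.03 relative to all genes.

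Promoter stretches of 3 of these genes are shown because they hold CACGTG, the E-box that MYC and MAX are known to bind. They were chosen by the place of the E-box before the start, with a chromosome left out. Any part of MYC in the lower responses was not tested. Windows from 250 bases before to 50 after the start were taken from RefSeq (GRCm38.p6) for 38 of the 44 lower genes of the list, and 9 of the 38 held CACGTG. The letters are the same on both strands. Capitals mark the E-box, and each stretch reads 5′ to 3′ on the strand of the gene.
Nol11, chr11:107189392-107189451, minus strand, E-box starting 43 bases before the start: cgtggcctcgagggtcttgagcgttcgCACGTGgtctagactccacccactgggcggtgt
Nop2, chr6:125131796-125131855, plus strand, E-box starting 60 bases before the start: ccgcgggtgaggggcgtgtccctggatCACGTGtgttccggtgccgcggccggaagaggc
Rrn3, chr16:13780624-13780683, plus strand, E-box starting 48 bases before the start: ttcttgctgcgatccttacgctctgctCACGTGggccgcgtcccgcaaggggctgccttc

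Nol11, a part of the small subunit processome, had a difference of -0.57 (adjusted p = 0.0259). Nop2, an rRNA methyltransferase, had -0.64 (adjusted p = 0.0262), and Rrn3, the initiation factor of RNA polymerase I, had -0.44 (adjusted p = 0.0362). By windows, the E-box was in 9 of 46 of the lower ribosome biogenesis genes (19.6%) and in 16.7% of 96 of all ribosome biogenesis genes tested. It was in 13.5% of 872 windows of genes with a lower response and in 19 of 186 windows of genes with a higher response. Of 13087 windows of all genes tested, 9.82% held it. Over all 32851 windows of the table the share was 7.15%. Among other lists the E-box was in 4 of 12 windows of aminoacyl-tRNA synthetases (33.3%) and 4 of 22 of TNF superfamily genes (18.2%). It was in 6 of 37 of serine, one-carbon and nucleotide synthesis genes (16.2%) and 4 of 27 of immediate early factors (14.8%). Chaperones had 5 of 46 (10.9%), amino acid genes 2 of 28 (7.14%) and quiescence genes 3 of 46 (6.52%). Cytokine genes had 0 of 28, and guanylate-binding and immunity-related GTPases 0 of 12. These shares are counts of letters and say nothing about binding.

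Other parts of the growth program moved with ribosome biogenesis. Serine, one-carbon and nucleotide synthesis genes were lower in 14 of 33 (5 lower and 1 higher without WT 1), with a median of -0.40. Cad, which starts pyrimidine synthesis, rose from 41.1, 38.3 and 44.5 to 342, 328 and 275 CPM in WT mice, and from 48.5, 51.2 and 47.2 to 126, 226 and 186 CPM in Aim2-/- mice (-1.09, SE 0.18, adjusted p = 0.0120). Ctps (-0.84), Umps (-0.75) and the mitochondrial folate enzyme Mthfd2 (-0.76) belong here too. Amino acid response genes and transporters were lower in 11 of 29 (4 without WT 1), with a median of -0.39, including the transporters Slc7a5 (-0.81), Slc7a1 (-0.75), Slc38a1 (-0.67) and Slc3a2 (-0.64). Chac1, a target of the amino acid response, had -1.74, but measured 0.259 to 1.46 CPM in WT and 5.36 to 7.81 CPM in Aim2-/- mice at 0 h, so its difference lay at the start. Aminoacyl-tRNA synthetases were lower in 7 of 20 (2 lower and 1 higher without WT 1), among them Aars (-0.65), Kars (-0.61) and Iars (-0.51). Translation initiation factors were lower in 10 of 52, led by Eif3a (-0.65), Eif3c (-0.68) and Eif4g1 (-0.63). Without WT 1 the count was 1, near the share of all genes called lower in that fit.

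Chaperones and ER folding genes were lower in 18 of 47 (6 without WT 1), with a median of -0.28. Hspd1, the mitochondrial chaperonin HSP60, reached 284, 322 and 291 CPM in WT and 140, 231 and 214 CPM in Aim2-/- mice, from 46.3 to 59.5 CPM at 0 h (-0.80, SE 0.18, adjusted p = 0.0239). Hsp90ab1 (-0.81), Hsp90aa1 (-1.02), Hspa5 (-0.70) and Hspa8 (-0.60) were lower too. Glucose uptake and glycolysis genes were lower in 8 of 31 (6 without WT 1), with the hexokinase Hk2 at -1.16, the regulator Pfkfb3 at -0.73, Hif1a at -0.70 and the lactate transporter Slc16a1 at -0.90. Gapdh (-1.30) measured under 14 CPM on average in every group, a low level for this gene, whose reads are shared with many pseudogene copies, and is uncertain. Ldha (-0.47, adjusted p = 0.0501) and the glucose transporter Slc2a1 (-0.26, 0.158) did not pass. Fatty acid synthase (Fasn, -0.82) and the thioredoxin reductase Txnrd1 (-0.80) were lower, but the lists they belong to had medians near that of all genes. Sterol and fatty acid synthesis genes were lower in 4 of 39, with a median of 0.008. Thioredoxin, peroxiredoxin and NRF2 target genes were lower in 4 and higher in 1 of 28, with a median of 0.045.

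**Figure D5:**
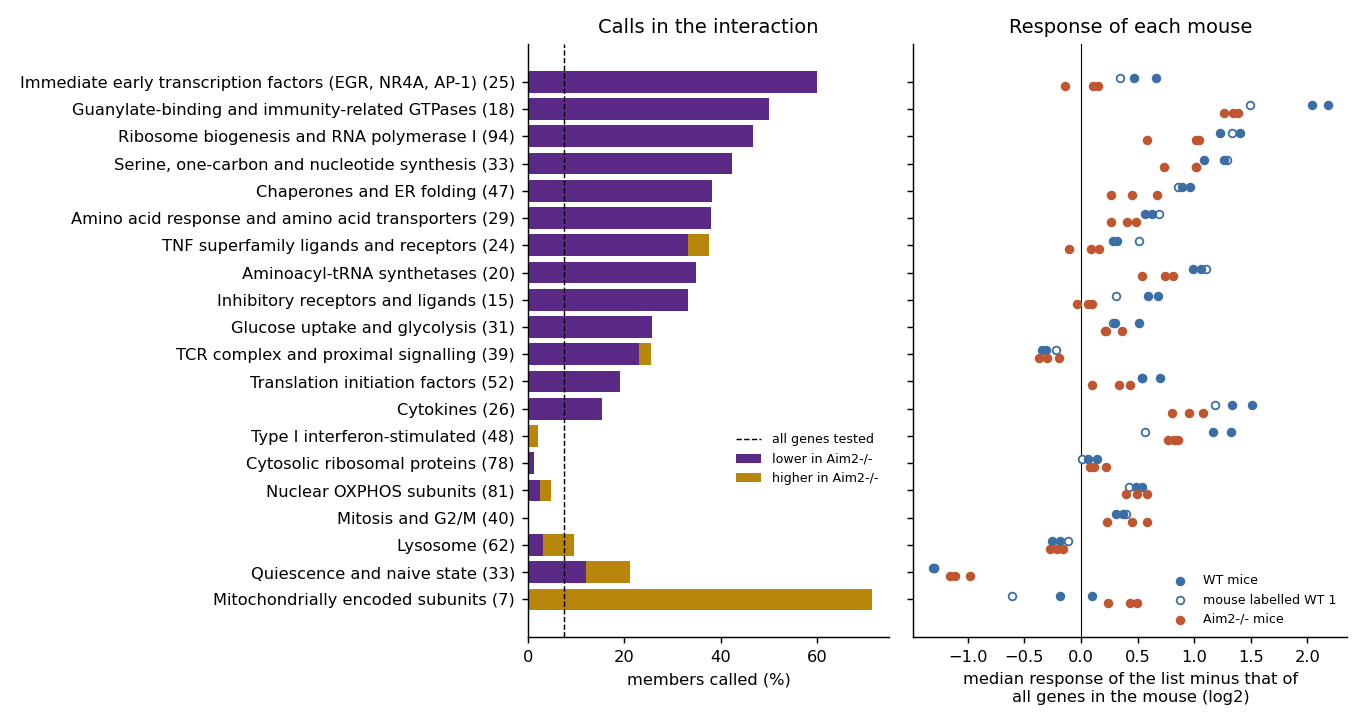
Left, share of the tested members of 20 gene lists (number tested in brackets) called lower or higher in Aim2-/- cells, with a dashed line at the 7.57% of all genes. Right, median response of each list in each mouse relative to the median of all genes in that mouse, in log2 units. The immediate early, ribosome biogenesis and chaperone lists separate the genotypes, as do many of the other lists plotted, and the ribosomal protein list does not.

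Guanylate-binding proteins and immunity-related GTPases, which are interferon-gamma targets that act on intracellular pathogens, were lower in 9 of 18. Their median was -0.54, and without WT 1 the count was 13 with the most negative of the list's medians (-0.80). In single mice the list rose above all genes by 1.496 in WT 1, by 2.04 and 2.18 in WT 3 and WT 4 and by 1.27 to 1.38 in the Aim2-/- mice, so WT 1 lay between the groups. The type I interferon-stimulated list rose by 0.56 in WT 1, by 1.16 and 1.33 in WT 3 and WT 4 and by 0.77 to 0.86 in the Aim2-/- mice, and there WT 1 lay below every other mouse. Gbp7 rose from 66.2, 46.1 and 59.9 to 259, 236 and 340 CPM in WT mice, and from 67.3, 70.6 and 56.2 to 156, 195 and 165 CPM in Aim2-/- mice (-0.87, SE 0.14, adjusted p = 0.0114). All WT levels at 6 h were above all Aim2-/- levels. Iigp1 (-1.12), Gbp5 (-1.04), Irgm2 (-0.69) and Tgtp2 (-0.71) were lower too. Ifng itself, as given above, did not pass and measured more in Aim2-/- cells at both times (means of 26.8 and 158 CPM against 13.96 and 96.7 CPM in WT). Members of this family have near-identical copies, Tgtp1 and Tgtp2 for example, between which reads cannot be assigned with certainty. Of 24 genes for MHC class I and peptide loading 5 were lower (3 without WT 1), including Tapbpl (-0.72), H2-T23 (-0.68) and calnexin (Canx, -0.58).

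Genes with a higher response mostly were genes that stimulation shuts off. Klf2, a factor that keeps T cells quiescent and recirculating, fell from 691, 792 and 878 to 185, 244 and 313 CPM in WT mice, and from 489, 610 and 701 to 278, 298 and 317 CPM in Aim2-/- mice (0.70, SE 0.13, adjusted p = 0.0133). The starting level was lower in 2 of the Aim2-/- mice than in any WT mouse, and the 6 h levels overlapped. Il7r (0.61), the receptor for the survival cytokine IL-7, and Tcf7 (0.61), a stemness factor, followed this course. Tcf7 began at 1739, 2083 and 1995 CPM in WT and 1065, 1539 and 1398 CPM in Aim2-/- mice and ended at 692 to 707 and 652 to 832 CPM. Of 33 quiescence and naive state genes 3 were higher and 4 lower (3 and 2 without WT 1). The lower ones included Tob2 (-0.83), Satb1 (-0.48) and Igfbp4 (-0.49), so the list did not move in a single direction.

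Some higher genes ended above WT. Ctla2a, an inhibitor of cathepsin L-like proteases, fell from 52.9, 68.6 and 75.3 to 24.8, 25.2 and 34.4 CPM in WT mice, and from 78.6, 59.9 and 80.0 to 74.2, 41.4 and 67.4 CPM in Aim2-/- mice (0.94, SE 0.14, adjusted p = 0.00936). The 6 h levels did not overlap. Arrb2, beta-arrestin 2, which desensitises chemokine receptors, fell in WT, from 181, 199 and 181 to 90.7, 94.1 and 87.2 CPM, and fell less in Aim2-/- mice, from 145, 162 and 145 to 125, 109 and 110 CPM (0.65, SE 0.11, adjusted p = 0.0120). Emc9 fell from 13.1 to 15.3 CPM to 3.50 to 4.72 CPM in WT mice, and from 9.29 to 10.22 CPM to 6.15 to 7.77 CPM in Aim2-/- mice (1.27), and the sphingomyelinase Smpd5 had 1.10. For Arrb2, Emc9 and Smpd5 the Aim2-/- mice were below WT at 0 h and above at 6 h with no overlap at either time. Acp5 (0.83), Arhgap9 (0.67), Oard1 (0.61), Cd55 (1.02), Slc38a6 (1.03), the thyroid hormone receptor Thra (1.28) and cathepsin F (Ctsf, 1.24) were also higher. Of 62 lysosome genes 4 were higher and 2 lower (7 and 0 without WT 1), and of 40 RGS, GRK and arrestin genes 3 were higher and 3 lower (4 and 1 without WT 1).

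Mitochondrially encoded subunits of the respiratory chain had a higher response in Aim2-/- cells. Of 13 such genes, 7 had more than 20 counts and were tested, and 5 of the 7 were higher (3 without WT 1, 7 with library totals), with a median of 0.67 relative to all genes. The count was 0 without WT 3, without Aim2-/- 1, without Aim2-/- 4 and with all 24 libraries and the mouse block. mt-Nd5 went from 2038, 2588 and 2060 to 1359, 2075 and 1952 CPM in WT mice, and from 1740, 1658 and 2261 to 2528, 1778 and 2753 CPM in Aim2-/- mice (0.64, SE 0.15, adjusted p = 0.0254). It fell in each WT mouse and rose in each Aim2-/- mouse. mt-Cytb (0.53, adjusted p = 0.0504) and mt-Nd1 (0.62, 0.0538) were just outside the threshold. All mitochondrial transcripts made up 1.24% to 2.05% of counts in the WT and the unstimulated Aim2-/- libraries except Aim2-/- 4 at 0 h (2.06%), and 2.72%, 1.77% and 2.91% in Aim2-/- 1, 2 and 4 at 6 h, so Aim2-/- 2 lay within the range of the others. This share is read as a sign of RNA and cell quality, and its part in the other differences was not tested. Nuclear subunits of the same complexes were called in 4 of 81 genes, 2 each way (2 higher and 0 lower without WT 1).

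Immunoglobulin genes were called in 13 of 178 (7.30%, close to the share of all genes), all lower, and without WT 1 4 were lower and 3 higher of 186. They included Ighv1-84 (-3.17), Igkv4-57-1 (-2.66) and Ighv1-80 (-2.01), which were among the 10 most negative differences that met the rule for naming. Igkv3-2 measured 8.31, 1.61 and 0.152 CPM at 0 h and 9.30, 2.07 and 0 CPM at 6 h in WT 1, 3 and 4, and went from 25.1, 27.01 and 62.3 to 10.7, 9.49 and 30.1 CPM in Aim2-/- mice (-1.42). Igkv3-2 was thus higher in every Aim2-/- mouse than in any WT mouse at both times, and among WT mice it was highest in WT 1, as were the plasma cell markers at 0 h (169 CPM). The part of plasma cells in these values was not tested, and variable segments share sequence, so single segments are uncertain.

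At the other times the same contrast, which shares the 0 h libraries, called 0 of 14276 genes at 3 h (1119 with an unadjusted p under 0.05) and 1 of 14546 at 24 h (2535). The values at 3 h, 6 h and 24 h were -1.13, -1.14 and -0.56 for Tnf, -0.73, -1.08 and -0.34 for Nr4a2, -0.32, -0.99 and -0.49 for Rrp1b, -0.65, -0.93 and -0.46 for Myc and -0.67, -0.87 and -0.37 for Gbp7. They were 0.36, 0.70 and 0.79 for Klf2, 0.43, 0.94 and 1.38 for Ctla2a and 0.43, 0.64 and 0.69 for mt-Nd5. Whether the difference at 6 h exceeds that at 3 h or 24 h was not tested.

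By class, 856 protein-coding genes were lower and 189 higher of 12244 tested, and long noncoding RNAs were lower in 8 and higher in 13 of 936. Genes with a lower response had long transcripts. The median length of the longest transcript was 4452 bases, against 2670 in higher genes and 3069 in all genes tested, with GC contents of 49.3%, 51.5% and 49.5%. With counts corrected for GC content and length in each library, 994 genes were called (795 lower, 199 higher), of which 806 were among the 1093. The ribosome biogenesis and immediate early counts were 44 and 15 as before. Other lists changed, with lower proteasome subunits going from 2 to 9 of 42 and lower calcium and NFAT genes from 5 to 2 of 20.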

How the data were processed

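The 24 libraries were made from total RNA of mouse splenic CD4+ T cells with a stranded mRNA kit per the labels, and sequenced as single reads per the general methods of the study. The authors deposited 1 table of raw read counts per gene, made by alignment to GRCm38 with STAR per the submitters' processing notes. Whether counting used the strand is not given in the sources used here, so antisense and overlapping genes are uncertain. Counts were used as deposited, with no row left out, and the 12 libraries of 0 h and 6 h entered the fit. Symbols, lengths and GC contents came from GENCODE M21 (54409 of 54446 identifiers matched). Groups were taken from the labels. Members and gene lists were chosen with earlier results of these data known.

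Genes were kept by edgeR's filterByExpr (minimum count 10), which left 14431. edgeR 4.0.16 (R 4.3.3) was fitted with TMM factors, a term for each mouse and a 6 h term for each genotype. The quasi-likelihood test compared the 6 h terms, two-sided, at a Benjamini-Hochberg adjusted p of 0.05. Per-mouse responses are log2 CPM with a prior count of 2. The biological coefficient of variation was 8.74% and residual degrees of freedom were 4. DESeq2 1.42.0, limma-voom 3.58.1, other size factors, filters and the omission of each mouse were tried.

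Same-numbered libraries of a genotype come from the same mouse. Their deviations from group means correlated with r of 0.337 to 0.544 in every mouse, so the block was kept. Between mice r was -0.388 to 0.0519, but deviations from a group mean cancel out over its mice, which in itself lowers these values. Whether 0 h and 6 h cells of a mouse were cultured apart is not given in the sources used here. The p values cover the spread of the 0 h to 6 h change among these mice and not that of their levels. Replicate libraries differed by more than sampling noise.

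Genes were named by rule: those the study measured, those known from earlier results of these data (Arrb2, Arhgap9, Acp5, Oard1), the 10 largest differences and 5 smallest p values each way among called genes of at least 5 CPM in a group whose mice did not overlap and that have a regular symbol, and the 3 smallest p values each way in each list. A gene that the rule covers is not reported here. Further list members were named after their values were seen. On simulated counts for 14184 genes, 29% of 100 genes with a difference of 0.5 and 60% of 100 with 1 (log2) were recovered, and 3 unchanged genes were called. Depth was 19993612 to 21627018 counts per library, where 3 counts, the smallest number read as detection, equal 0.139 to 0.150 CPM. E-box counts used RefSeq windows on GRCm38.p6.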

Additional observations from a re-analysis of the deposited data

Results flagged for a closer look

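The results listed here are effects of stimulation that differed between the genotypes by the test of the difference itself, which was passed by 1093 genes. Among genes that met the rule for naming, the most negative differences, Aim2-/- minus WT on the log2 scale, were -3.17 for Ighv1-84, -2.66 for Igkv4-57-1, -2.55 for Ccl3, -2.08 for Alpl, -2.01 for Ighv1-80, -1.97 for Spin4, -1.87 for Slamf7, -1.78 for Fgr, -1.74 for Chac1 and -1.68 for Fnip2. The largest positive differences were 1.49 for Parp16, 1.28 for Thra, 1.27 for Emc9, 1.24 for Ctsf, 1.20 for Lyrm7, 1.10 for Smpd5, 1.09 for Mettl27, 1.04 for Sema6c, 1.03 for Slc38a6 and 1.02 for Cd55. Among the smallest p values were differences of -1.14 for Tnf, -1.08 for Nr4a2, -1.47 for Hivep3, -0.94 for Zfp871, -0.92 for Pdxk, 0.94 for Ctla2a, 0.90 for Trp53i13 and 0.65 for Arrb2. Dixon's test for an outlying library was not run, since groups held 3 mice. By chi-square per gene between libraries, the mouse labelled WT 1 had 29.8 with WT 3 and 22.5 with WT 4 at 0 h. WT 3 with WT 4 had 12.7. At 6 h the values were 28.8 and 28.7 against 10.7. Pairs of Aim2-/- mice had 30.1, 21.6 and 20.03 at 0 h and 39.2, 30.3 and 26.04 at 6 h. The values of WT 1 thus lay within the range of the Aim2-/- pairs at both times, and WT 3 with WT 4 was the closest pair.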

How the results depend on the processing

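The genotype difference at 6 h was called for 1093 genes (206 higher, 887 lower). The count depended on the paired design, and the fit with no replicate block gave 0 genes (0 higher, 0 lower). All 24 libraries gave 717 genes with the block (353 higher, 364 lower) and 4 without it (4 higher, 0 lower). Library totals gave 714 (371 and 343), no filter on low counts 1643 (748 higher), and the marker scores with all 24 libraries 375 higher and 372 lower, with 5679 and 4926 genes in the WT and Aim2-/- responses. Leaving out each mouse gave 0 to 1168 genes, 0 to 314 higher and 0 to 966 lower, with the lowest of each without WT 3. Values changed sign for Il10 (0.0068 with all 24 libraries and marker scores), and with single mice left out for Il10 (-0.38 to 0.11), Aim2 (-0.072 to 0.27) and Ifng (-0.41 to 0.050), none of them called in any of the 18 alternatives. The cause of these changes was not tested. RLE size factors, DESeq2, limma-voom, a mean of at least 1 CPM, the robust prior and the GC and length correction gave 847, 1136, 1202, 1077, 1086 and 994 genes. Medians of 16 lists, from immediate early factors to lysosome, kept their sign in all 18 alternatives, whereas those of the calcium and NFAT, chemokine and mitochondrial ribosomal protein lists, all near that of all genes, changed sign in some. With 3 mice in each genotype and 4 residual degrees of freedom, 29% of simulated differences of 0.5 (log2) were recovered, so differences of that size can be missed. The simulation changed far fewer genes than the 1093 called, and differences called here were as small as -0.338 and 0.358.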
